A study of Lathyrus oleraceus with 6 samples.

Results

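Psat1g029320, Psat2g044920 and Psat4g088560 are 3 of the 44756 loci in the count table of pea roots (Pisum sativum L.) treated with deacetylated chitooligosaccharides. The first and the second are described as Avr9/Cf-9 rapidly elicited proteins, and Psat4g088560 is described as a probable disease resistance protein similar to At5g66900 of Arabidopsis. They were picked by identifier from the genes that the study put forward as higher after treatment, so the difference between the groups is what chose them. It is described here for these loci, with no p.

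Roots came from young wild-type seedlings of cultivar Frisson that stood for 24 h in diluted Jensen's medium, either without elicitor (control) or with CO8-DA at 1e-05 M. CO8-DA is a chitosan-type chain of glucosamine units, most of them free of acetyl groups and around octamers in length. There were 3 libraries in each group, each from a few pooled plants, and their estimated counts summed to between 12315774 and 19534336. The labels and the study's tables name no root marker independently of its change, so the tissue label was not checked. In whole roots, a change in the share of cells that express a gene and a change of RNA per cell cannot be told apart.

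Avr9 is a small secreted peptide of the tomato leaf mould fungus Cladosporium fulvum, and Cf-9 is the tomato cell surface receptor-like protein that recognises it. The name "Avr9/Cf-9 rapidly elicited" goes back to tobacco cells carrying Cf-9, where a group of transcripts rose soon after Avr9 was added. Several of these transcripts encode U-box ubiquitin ligases, enzymes that attach ubiquitin to other proteins, and some of them are needed for the hypersensitive cell death that Cf-9 triggers in Nicotiana. At5g66900 of Arabidopsis belongs to the NRG1 family of helper NLRs, intracellular resistance proteins that act downstream of receptors with a TIR domain. These names were given to the pea loci by sequence matches alone. For both Avr9/Cf-9 loci the study's annotation lists a U-box domain together with the terms response to chitin, protein ubiquitination and detection of a molecule of fungal origin. For Psat4g088560 it lists an NB-ARC domain, the nucleotide-binding switch of NLR proteins, and leucine-rich repeats. No sequence of these loci was used here, because the identifiers of the count table match none in the reference gene list.

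All levels below are CPM, the usual scaling of counts to the library total, with totals adjusted for differences in composition by edgeR's TMM method. The lengths of the genes are not in the table, so levels are compared between libraries and not between loci.

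Psat1g029320, on chromosome 1 by its identifier, was close to the limit of detection in the control. It had 4, 3 and 12 counts in control replicates 1, 2 and 3 and 115, 100 and 135 counts in CO8-DA replicates 1, 2 and 3. On the CPM scale this was 0.271, 0.245 and 0.857 in the control and 8.97, 6.28 and 6.91 after CO8-DA. Every CO8-DA library lay above every control library, and the lowest CO8-DA level was 7.33 times the highest control level. The control mean was 0.458 ± 0.346 CPM and the CO8-DA mean 7.39 ± 1.41 CPM (SD, n = 3). The fitted difference was 3.97 on the log2 scale with a standard error of 0.42, which is 15.7-fold. The control level of this locus is imprecise. The exact Poisson 95% interval for the 3 counts of control replicate 2 runs from 0.0505 to 0.715 CPM, and it contains the level of control replicate 1 but not that of control replicate 3. These intervals leave out every source of error but counting, and molecular identifiers were not used.

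Psat2g044920, on chromosome 2, carries the same description. It had 37, 11 and 17 counts in the control replicates and 197, 213 and 327 counts after CO8-DA. In CPM the control replicates stood at 2.51, 0.898 and 1.21 and the CO8-DA replicates at 15.4, 13.4 and 16.7. The groups again did not overlap, with the lowest CO8-DA level at 5.33 times the highest control level. The control mean was 1.54 ± 0.854 CPM and the CO8-DA mean 15.2 ± 1.68 CPM (SD, n = 3). On the log2 scale the fitted difference was 3.27 with a standard error of 0.33, or 9.66-fold. Control replicate 1 stood highest here, whereas control replicate 3 stood highest for Psat1g029320.

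The largest difference of the 3 was that of Psat4g088560, on chromosome 4, the NLR-type locus. It had 25, 16 and 28 counts in the control replicates and 863, 1036 and 1220 counts after CO8-DA. In CPM the control libraries gave 1.70, 1.31 and 2.00 and the CO8-DA libraries gave 67.3, 65.1 and 62.4. The CO8-DA libraries were thus nearly level with each other, and the lowest of them was 31.2 times the highest control library. The mean was 1.67 ± 0.348 CPM in the control against 65.0 ± 2.47 CPM with the elicitor (SD, n = 3), and the fitted difference of 5.27 on the log2 scale had a standard error of 0.15, which is 38.5-fold.

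**Figure D1:**
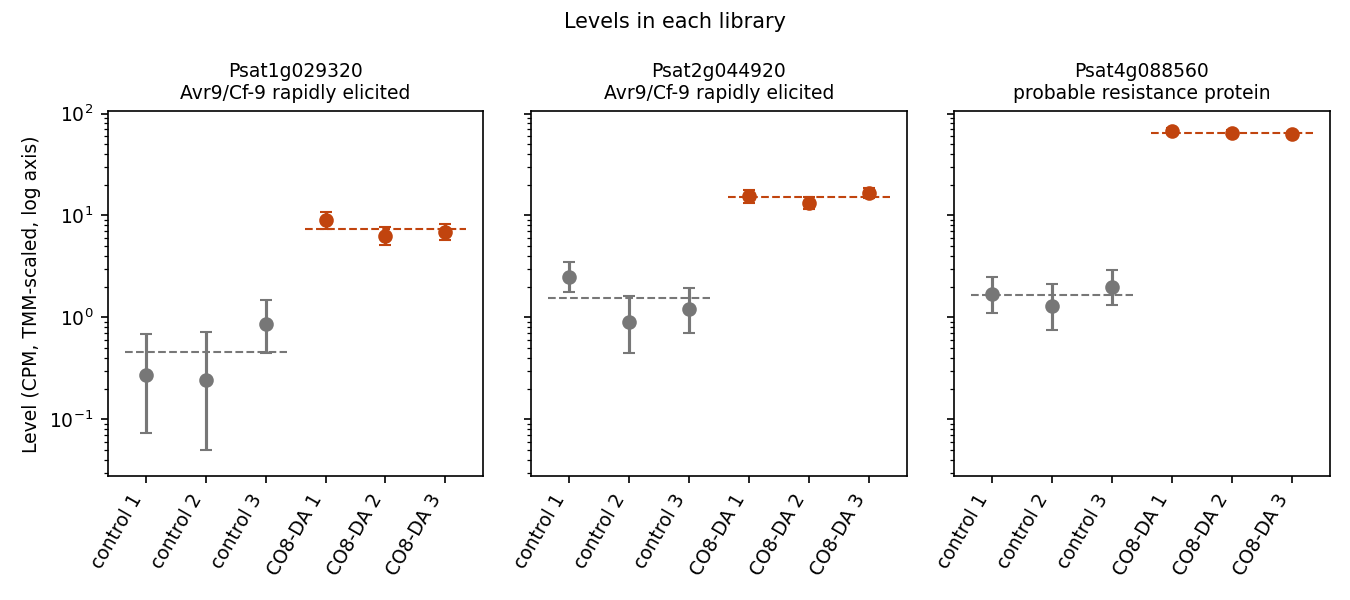
Level of each of the 3 loci in every library (points, CPM on the TMM scale, log axis), with exact Poisson 95% intervals for counting error (bars) and group means (dashed lines); grey is control and orange is CO8-DA. Control levels lie between 0.245 and 2.51 CPM, and all CO8-DA levels lie at 6.28 CPM or higher.

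A locus was called when edgeR's quasi-likelihood test gave an adjusted p below 0.05 and the fold change was 1 or more in size on the log2 scale. That all 3 loci were called was fixed by the choice, since the study used thresholds of this kind on the same contrast. Of all 21293 tested loci 2.63% were called higher, and in 13.7% every CO8-DA library lay above every control library. By log2 fold change they stood at ranks 34 (Psat4g088560), 90 (Psat1g029320) and 140 (Psat2g044920) from the top.

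The spread between the libraries of a group entered the choice through the study's p-values, and it is given as a description. In the control the coefficient of variation of CPM was 75.6% for Psat1g029320, 55.4% for Psat2g044920 and 20.9% for Psat4g088560. Counting alone would give 39.7%, 21.5% and 20.9% at these mean counts. In the control the spread was thus above that of counting for the Avr9/Cf-9 loci and level with it for Psat4g088560. The cause was not tested, and 3 libraries fix such coefficients only loosely. After CO8-DA the coefficients were 19.1%, 11.1% and 3.80%, against 9.26%, 6.38% and 3.10% from counting. The gene-wise dispersion fitted by edgeR corresponds to a biological coefficient of variation of 24.4% for Psat1g029320, 23.4% for Psat2g044920 and 11.9% for Psat4g088560. Relative to the trend at its own level, the dispersion of Psat2g044920 was 1.23 times the trend and that of Psat4g088560 was 0.603 times the trend.

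The higher libraries were not the same ones for each locus. Among the CO8-DA libraries, replicate 1 was highest for Psat1g029320 and Psat4g088560, while replicate 3 was highest for Psat2g044920. Control replicate 2, the library with the smallest total, was lowest for all 3 loci. Its deviation from the control mean of log2 CPM was -0.49 for Psat1g029320, -0.58 for Psat2g044920 and -0.30 for Psat4g088560. For Psat1g029320 this order rests on 3 counts against 4 in control replicate 1, whose deviation was -0.40, so counting cannot separate these libraries.

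Leaving out single libraries moved the fold changes mainly through the control. Without control replicate 3 the log2 fold change of Psat1g029320 was 4.79, and with any other library left out it lay between 3.68 and 4.08. Without control replicate 1 that of Psat2g044920 was 3.82, with 3.01 to 3.36 for the other 5 libraries. For Psat4g088560 the range over all 6 was narrow, from 5.13 to 5.42.

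**Figure D2:**
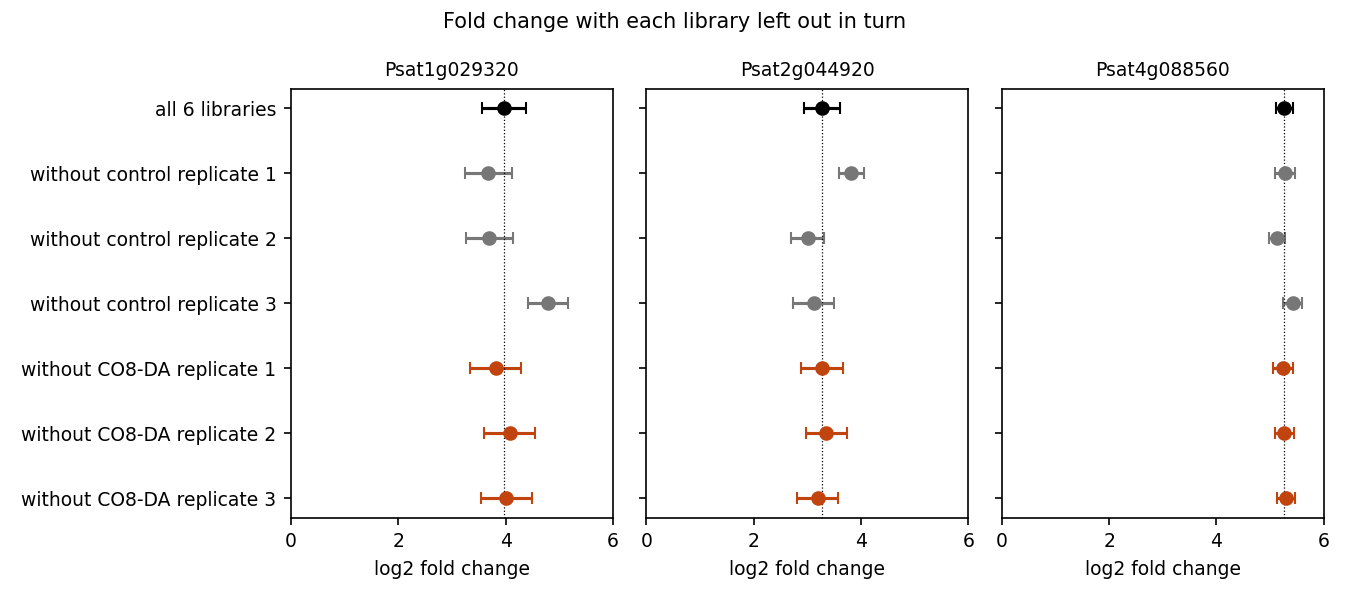
Fitted log2 fold change of CO8-DA over control (x axis, points with standard errors) for each of the 3 loci, with all 6 libraries (black) and with each library left out in turn (grey for control, orange for CO8-DA). Psat1g029320 moves to 4.79 without control replicate 3 and Psat2g044920 to 3.82 without control replicate 1, while Psat4g088560 stays between 5.13 and 5.42.

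Within a library the ratio of one locus to another does not depend on the library total. Its size depends on the lengths of the genes, so it is compared between libraries only. The ratio of Psat4g088560 to Psat2g044920 in CPM was 0.676, 1.45 and 1.65 in control replicates 1, 2 and 3 and 4.38, 4.86 and 3.73 in the CO8-DA replicates. The lowest of the CO8-DA ratios lay above the highest of the control. The ratio of Psat4g088560 to Psat1g029320 was 6.25, 5.33 and 2.33 in the control and 7.50, 10.4 and 9.04 after CO8-DA, also without overlap. Between the Avr9/Cf-9 loci no such separation was seen. The ratio of Psat2g044920 to Psat1g029320 was 9.25, 3.67 and 1.42 in the control and 1.71, 2.13 and 2.42 after CO8-DA, and the CO8-DA ratios lie inside the control range. Control ratios to Psat1g029320 rest on its 4, 3 and 12 counts and are imprecise. These ratios use the contrast that chose the loci and are given as a description.

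RSEM divides a read that fits several loci between them, and an estimate that is not whole is a sign of such sharing. The estimates of Psat1g029320 and Psat2g044920 were whole in all 6 libraries, to within 0.005 of a count. Those of Psat4g088560 were whole in the control and not whole in the 3 CO8-DA libraries, where they were 862.92, 1036.12 and 1220.29. How many of its reads were shared cannot be read from these values.

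The loci on either side offer a comparison that the choice did not use. Taking the pair of listed loci before and the pair after each of the 3, with the order of identifiers assumed to follow the chromosome, gave 12 neighbours. Of these, 6 had enough counts to be tested, 4 had no count in any library and 2 had too few. None of the 6 was called by edgeR or DESeq2, against 3.13% of all tested loci called either way in edgeR, and 1 had an unadjusted p under 0.05. That locus was Psat4g088480, the second before Psat4g088560, which had control levels of 8.88, 9.22 and 9.14 CPM and CO8-DA levels of 11.2, 14.3 and 15.8 CPM. In edgeR it was 0.60 higher in log2 terms, with a standard error of 0.16 and an adjusted p = 0.0841, and it was higher in 3 of 3 CO8-DA libraries, and with DESeq2 the adjusted p was 0.0488. Over all alternatives tried the adjusted p lay between 0.0488 and 0.255, and its estimates were not whole in any library. The log2 fold changes of the other 5 tested neighbours lay between -0.19 and 0.22. The 0.22 was that of Psat4g088600, directly after Psat4g088560, with an adjusted p = 0.264 in edgeR. It had 220, 216 and 206 CPM in the control and 256, 262 and 232 CPM after CO8-DA, so its groups did not overlap either. Of all tested loci, 13.7% had every CO8-DA library above every control library. Psat4g088520, the locus directly before Psat4g088560, is described as a transmembrane protein. It had 0, 0 and 0 counts in the control and 5, 6 and 3 after CO8-DA, with estimates that were not whole in the 3 CO8-DA libraries. With no control counts, only the CO8-DA libraries could show divided reads. Psat4g088520 was below the filter on low counts and was not called when the filter was lifted.

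**Figure D3:**
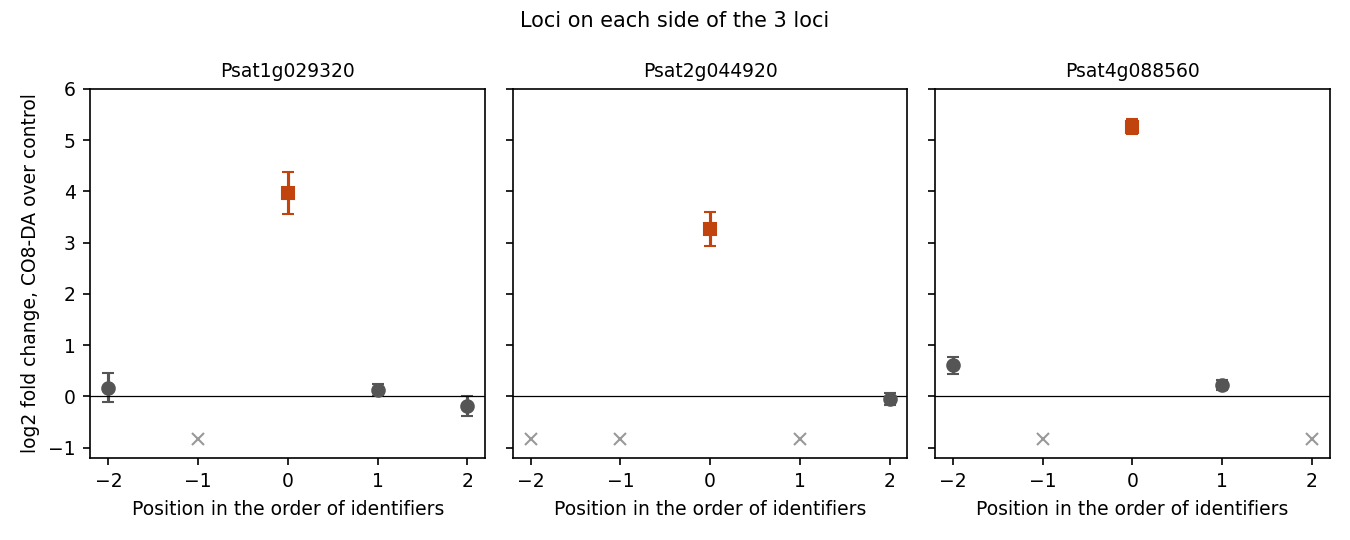
Log2 fold change of CO8-DA over control (y axis, with standard errors) for each of the 3 loci (orange squares at position 0) and the listed loci before and after it by identifier (grey circles); grey crosses along the bottom mark loci with too few counts to be tested and have no fold change. The tested neighbours lie between -0.19 and 0.60, and the 3 loci at 3.27 or above.

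For each locus the tested loci with the most similar pattern were sought, as the smallest root mean square difference of log2 CPM over the 6 libraries after centring each locus on its own mean. For Psat1g029320 the nearest was Psat4g005960, an F-box protein, at a difference of 0.18, with 1, 0 and 4 counts in the control and 56, 50 and 57 after CO8-DA. The 4 that followed were Psat2g149240, described as a serine/threonine-protein kinase, Psat4g201480, a BON1-associated-like protein, Psat4g207480, an MLO-like protein, and the uncharacterized Psat4g106120. For Psat2g044920 the nearest was Psat4g143720, a zinc induced facilitator-like protein, at 0.18, followed by Psat7g179600, annotated with glucan endo-glucosidase activity, Psat0s5249g0040, Psat5g286280, an ADP/ATP carrier, and Psat1g097600, a phosphate carrier. Psat7g179600 had 37, 17 and 18 counts in the control and 224, 249 and 348 after CO8-DA. For Psat4g088560 the nearest were Psat7g118200, described as glutamate receptor 3.4, Psat7g016000, the patatin-like phospholipase Psat5g043960, the C2H2 zinc finger Psat6g069040 and Psat3g133400. These 5 had between 0 and 6 counts over the control group. At so few control counts the log2 CPM used for the likeness depends on its prior count of 2, and with a prior count of 0.5 none of these 5 was among the nearest. With that prior count Psat4g207480 alone stayed among the 5 nearest to Psat1g029320, so Psat4g005960 dropped out. For Psat2g044920, 4 of the 5 stayed. The 3 loci themselves were further apart, at 0.71 between Psat1g029320 and Psat2g044920, 0.78 between Psat1g029320 and Psat4g088560 and 1.02 between Psat2g044920 and Psat4g088560. Among all tested loci, Psat2g044920 was still number 131 and Psat4g088560 number 161 in likeness to Psat1g029320. In likeness to Psat2g044920, Psat4g088560 was number 500. The difference between the groups, which chose the 3 loci, enters this measure.

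The other loci with the same descriptions or functions were listed from the study's tables, which are cut or sorted by change, so the direction of the lists is no independent evidence. Beside 2.63% of all tested loci called higher and 0.493% called lower, and a median log2 fold change of -0.01, they are described by counts. Of 4 further Avr9/Cf-9 loci, 2 were tested and both were called higher. Psat7g056440 had no control count and 70, 85 and 45 counts after CO8-DA, at least 56.6-fold higher if the control is set to 3 counts summed over its libraries. Its estimates were not whole in those 3 CO8-DA libraries. Psat5g119440, which also carries a U-box, had 99, 43 and 47 counts in the control against 202, 315 and 408 with the elicitor, which is 2.05 on the log2 scale with a standard error of 0.28. Psat5g296760 and Psat5g296920 had at most 4 counts in any library. Among 11 other U-box loci, Psat5g119440 included, 9 were tested, 6 were called higher and none lower. Their log2 fold changes had a median of 2.05 and ran from 1.24 to 2.77. With each library left out in turn 4 of the 6 were called every time. Psat6g113600 (PUB14) and Psat5g260880 (PUB22-like) missed the threshold in some of these fits, with adjusted p up to 0.0557. Psat3g028280 (PUB23-like, edgeR adjusted p = 0.0508) passed it in 5 of 14 alternatives, among them DESeq2 and the fit without control replicate 1. Psat2g158800 passed it only with DESeq2 (adjusted p = 0.0396), which called 8 of these loci higher. Both U-box loci described above, at 3.97 and 3.27, thus stood above every other tested U-box locus of the list, the highest of which was Psat4g056640, described as a spotted leaf protein. Their rise chose these loci and change shaped the list, so this order is given as a description only. All 9 tested U-box loci had a positive fold change.

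Terms for molecules of fungal origin are annotated at 3 further loci, as detection at Psat2g024280 and as response at Psat2g143560 and Psat4g046200, and these went both ways. The zinc finger locus Psat2g143560 was called higher, with 5, 0 and 1 counts in the control and 22, 20 and 43 after CO8-DA. Psat4g046200, of the adenine nucleotide alpha hydrolase superfamily, and Psat2g024280, a LysM receptor kinase, a class that binds chitin fragments, were called lower at -1.72 and -1.91 on the log2 scale. None of the 3 calls held in every fit with 1 library left out, though the fold changes kept their direction. In these fits that of Psat2g143560 held only without control replicate 1, at 5.23, and in the other 5 its value lay between 3.01 and 3.69. Both lower calls missed the adjusted p threshold without any one of the CO8-DA libraries, with values of -1.85 to -1.63 for Psat4g046200 and -2.12 to -1.74 for Psat2g024280. They also missed it without control replicate 3 for Psat4g046200 and without control replicate 2 for Psat2g024280.

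As helper NLRs of the NRG1 family act with TIR-type receptors in Arabidopsis and Nicotiana, the TIR-domain loci of the same tables are given beside Psat4g088560. Of 10, 9 were tested and 9 were called higher, with a median log2 fold change of 1.71. With each library left out in turn 5 of the 9 were called every time, and without CO8-DA replicate 3 only 5 were called. Psat5g289040 was called in none of these 6 fits, at 1.51 to 1.87. Psat5g245600, a TIR domain protein, had no control count and 21, 17 and 35 counts after CO8-DA, at least 20.7-fold higher on the same floor. Of 9 other NLR loci 8 were called higher, with a median of 1.71. Of these calls 2 held with every library left out in turn, those of Psat2g140480 and Psat2g139760, and 3, 2 and 4 loci were called without CO8-DA replicates 1, 2 and 3. The exception, Psat7g067640, stood at -1.10 (edgeR adjusted p = 0.128) and was called lower by DESeq2 (adjusted p = 0.0343) and by edgeR without control replicate 1 (adjusted p = 0.0193). Its adjusted p reached 0.363 without control replicate 3, and its estimates were not whole in any library. The highest of them was Psat2g140480, of the CC-NBS-LRR class, at 3.10. Over both lists the nearest to the 5.27 of Psat4g088560 among loci with control counts was Psat4g182800, of the TIR-NBS-LRR class, at 4.03, with 2, 1 and 2 counts in the control. This order too is a description, as change entered the choice of all these loci. The remaining resistance candidates that the study names, the receptor-like kinase loci Psat7g105600, Psat3g098040 and Psat7g083880, were called higher at 2.38, 2.99 and 1.75. With 1 library left out the call of Psat3g098040 held in 6 of 6 fits, that of Psat7g105600 in 1 and that of Psat7g083880 in 2, at adjusted p up to 0.0838 and values of 1.52 to 2.71 for the latter loci. Without any one of control replicate 3 and the 3 CO8-DA replicates, only 1 of the 3 was called.

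The MAPKK loci, whose kinases pass the signal between a MAPKKK and a MAPK, are the one list here that was made by gene family and not by change. None of 6 was called by edgeR's quasi-likelihood test or by DESeq2, against 3.13% of all tested loci called either way in edgeR. In a list of 6, no call is near that share, and 1 locus had an unadjusted p under 0.05. That was Psat1g050720 (PsMAPKK5), whose control level was 19.7 ± 0.695 CPM and whose CO8-DA level was 16.2 ± 1.26 CPM (SD, n = 3). Its log2 difference in edgeR was -0.28 with a standard error of 0.11 and an adjusted p = 0.234, which ranged from 0.220 to 0.425 among the alternatives. Every CO8-DA library of this locus lay below every control library, and the share of all tested loci for which this holds was not counted. For Psat4g016480 (PsMAPKK2) the groups did not overlap either, in the other direction. It had 66.5, 62.6 and 64.4 CPM in the control and 66.8, 74.6 and 69.4 CPM after CO8-DA, 0.12 higher in log2 terms. Of all tested loci, 13.7% had every CO8-DA library above every control library. Apart from PsMAPKK5, the loci lay between -0.59 and 0.91. Without control replicate 1, Psat1g131480 (PsMAPKK1) moved from 0.91 to 2.19 and Psat1g029480 (PsMAPKK6) from -0.59 to 0.13, neither of them called. PsMAPKK6, a close neighbour of Psat1g029320 by identifier, had 140, 29 and 57 counts in the control and 57, 62 and 47 after CO8-DA, groups that overlap.

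**Figure D4:**
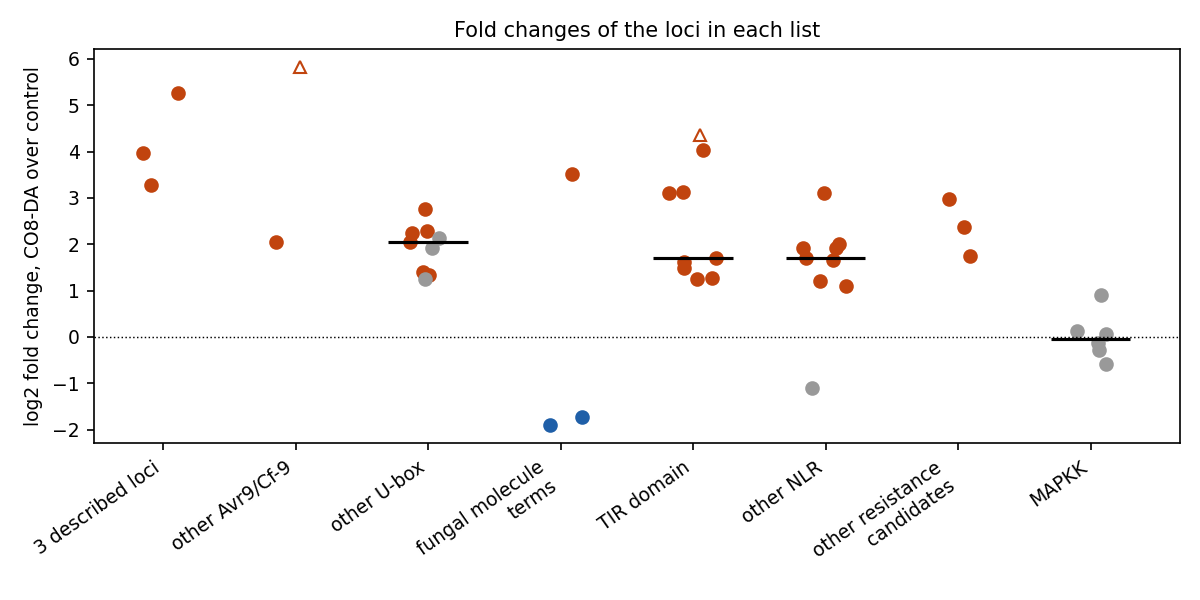
Log2 fold change of CO8-DA over control (y axis) for every tested locus of each list; orange was called higher, blue called lower and grey not called, open triangles are lower bounds for loci with no control count, black lines are medians of lists with 5 or more tested loci, and the dotted line is the median of all tested loci. The MAPKK loci scatter around 0, and Psat1g029320 and Psat2g044920 lie above the other U-box loci, an order given as a description because their rise chose them.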

How the data were processed

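The estimated counts were deposited by the authors without normalization. Per the labels, reads were trimmed with Trimmomatic 0.39, aligned with Bowtie2 2.4.4 and counted per gene with RSEM 1.3.1; the study names the pea genome v1a. Each column was matched to its sample by the sample's description, and groups came from the titles. Library totals are given above, and the tested loci held 99.9% of the counts of each library.

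The counts were rounded and fitted over the whole table in R 4.3.3 with edgeR 4.0.16 (TMM, filterByExpr, glmQLFit, glmQLFTest; two-sided; Benjamini-Hochberg over 21293 loci). The standard error is the log2 fold change divided by the square root of F. Alternatives were DESeq2 1.42.0, 3 other scalings, 2 other filters, unrounded counts, a replicate block and each library left out. Tables and plots used Python 3.11.15, pandas 2.3.3, scipy 1.17.1 and matplotlib 3.10.9.

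Loci named are the 3 chosen, every locus of the lists, the 2 listed loci on each side of each, and for each the 5 most alike tested loci. The loci and lists were chosen with earlier results of these data known. Descriptions and domains are text from the study's supplementary tables, one of which is held only in part; their fold changes and p-values were not used. The study describes the replicates as independent and each as several plants pooled.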

Additional observations from a re-analysis of the deposited data

How the results depend on the processing

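The fold changes of Psat1g029320, Psat2g044920 and Psat4g088560 kept their direction under every alternative tried. They stayed within the spread between replicates under all alternatives that keep the 6 libraries, with 3.96 to 4.01, 3.26 to 3.34 and 5.26 to 5.29 on the log2 scale. With 1 library left out they ranged from 3.68 to 4.79, from 3.01 to 3.82 and from 5.13 to 5.42, and the extremes come from single control libraries. Loci called higher over the whole table numbered 561 with all libraries and 338 to 778 with 1 left out, and loci called lower 105 and 33 to 165. DESeq2 called 182 lower. Of the other listed loci, 28 were called higher and 2 lower with all libraries, and 15 to 28 higher and 0 to 3 lower with 1 left out, with 16, 16 and 15 higher without CO8-DA replicates 1, 2 and 3. These fits have fewer samples. The most alike loci depend on the measure. With Pearson correlation 1, 0 and 0 of the 5 were shared for Psat1g029320, Psat2g044920 and Psat4g088560, and with a prior count of 0.5 in the log2 scale 1, 4 and 0 were. The cause was not tested.

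Whether the replicate numbers in the titles pair the libraries is not settled by these data. Deviations from the group means correlated at 0.23, 0.04 and 0.15 in libraries with the same number in the titles and at -0.20 to 0.09 in the others. Control replicates 1 and 3 correlated best with the CO8-DA library of the same title number, and control replicate 2 with CO8-DA replicate 3. The column names of the counts number the libraries differently. By these names control replicate 3 shares its number with CO8-DA replicate 1 (correlation -0.12), and control replicate 2 with CO8-DA replicate 2 (0.04). The other libraries have no partner by column name. The replicate block followed the titles, and no block by column name was fitted. With the block by titles the fold changes were 4.01, 3.34 and 5.27, and 588 loci were called higher and 118 lower. Depth limits Psat1g029320 most, with 19 counts over the control group.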
